A study of Rattus norvegicus with 12 samples.

Results

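The creatine and adenylate kinase energy shuttle was followed through 7 genes, taken from the count and FPKM matrices by their gene symbols: Ckm, Ckb, Ckmt2, Slc6a8, Gamt, Ak1 and Ak4. The matrices hold 18483 genes, of which 13967 passed a filter on low counts, and all 7 genes were among those that passed. RNA came from neonatal rat ventricular myocytes (NRVMs), primary heart muscle cells of Sprague-Dawley rat pups that the study's methods describe as separated from other heart cells on a Percoll density gradient. There were 4 groups of 3 samples: siNeg (control siRNA, untreated), siNeg PE (control siRNA with phenylephrine), siSlc39a2 (siRNA against the zinc transporter Slc39a2, untreated) and siSlc39a2 PE (the same siRNA with phenylephrine). Phenylephrine (PE) is an α1-adrenergic agonist that makes these cells hypertrophic, and the labels give 36 h of it. The culture methods of the paper state a longer treatment, and the duration in these samples was not settled. The labels call the 3 samples of a group independent biological replicates without saying whether they came from separate litters, so the p-values below measure the spread between these samples. The knockdown rests on an siRNA of a single sequence, so an effect of that sequence cannot be told apart from an effect of losing Slc39a2.

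Creatine kinases move the high-energy phosphate of ATP onto creatine and back. In heart muscle the mitochondrial enzyme charges creatine where ATP is made, and the cytosolic enzymes recharge ADP at the myofibrils and ion pumps where it is spent. Adenylate kinases work beside them by turning ADP into ATP and AMP, and the AMP so made is read by the AMP-activated kinase. The brain-type subunit Ckb is the main cytosolic creatine kinase of the fetal heart, and the muscle-type subunit Ckm takes over as the heart matures.

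Levels are given as FPKM, fragment counts scaled to library size and transcript length, which can be compared between genes. Changes are log2 fold changes of TMM-scaled counts from the quasi-likelihood test of edgeR over all 12 samples, with their standard errors (SE) and with p-values adjusted over all 13967 genes, and a gene was called at an adjusted p below 0.05. The study's own threshold also asks for an absolute log2 fold change above 1. Total counts per sample were between 24065539 and 28603854. Slc39a2 was checked first and fell in both knockdown groups, from 50, 50 and 59 counts to 21, 11 and 2 without PE and from 95, 198 and 182 to 31, 25 and 38 with PE. The labelled cell type was checked against 6 cardiomyocyte markers, which were all tested and summed to between 10023 and 12406 FPKM in every sample. Skeletal muscle markers, which could also come with Ckm, summed to at most 0.44 FPKM. Fibroblast markers were present in every group and their summed FPKM was not constant, and their values stand beside the results they move with.

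The promoters of Ckm, Ckb and Gamt, the 3 genes whose RNA differed most between groups, are printed so that their starts can be set side by side. Each runs from 250 bases before to 50 bases after the RefSeq start in the GRCr8 assembly, 5′ to 3′ on the strand of the gene. The deposited values were made on Rnor_6.0, so these coordinates do not belong to them. Capitals mark matches on either strand to the TATA box letters TATAA, to the CCAAT box, to the E-box letters CANNTG and to the GC box letters GGGCGG, which reads CCGCCC where it lies on the other strand. The capitals of different motifs did not overlap in these windows. Ckm lies at chr1:88189211-88189510 (+), Ckb at chr6:136553415-136553714 (-) and Gamt at chr7:10099034-10099333 (+).
Ckm: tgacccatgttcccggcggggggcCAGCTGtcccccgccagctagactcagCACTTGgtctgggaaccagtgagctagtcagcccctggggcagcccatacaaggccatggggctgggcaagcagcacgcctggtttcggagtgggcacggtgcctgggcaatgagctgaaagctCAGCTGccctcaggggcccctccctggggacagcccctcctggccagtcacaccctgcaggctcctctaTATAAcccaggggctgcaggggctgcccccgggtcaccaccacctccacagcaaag
Ckb: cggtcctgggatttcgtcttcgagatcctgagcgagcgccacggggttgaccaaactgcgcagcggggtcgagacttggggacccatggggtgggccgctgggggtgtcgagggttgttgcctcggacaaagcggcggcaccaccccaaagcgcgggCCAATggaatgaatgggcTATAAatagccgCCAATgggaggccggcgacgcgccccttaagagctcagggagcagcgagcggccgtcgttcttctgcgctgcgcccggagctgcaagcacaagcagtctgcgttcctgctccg
Gamt: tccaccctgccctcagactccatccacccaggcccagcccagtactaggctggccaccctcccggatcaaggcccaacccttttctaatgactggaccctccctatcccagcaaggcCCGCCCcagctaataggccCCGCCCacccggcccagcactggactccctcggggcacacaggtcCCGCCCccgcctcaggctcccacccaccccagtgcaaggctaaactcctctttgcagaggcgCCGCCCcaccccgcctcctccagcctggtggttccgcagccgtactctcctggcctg

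The Ckm window held 3 E-boxes, which began at -226, -199 and -75 relative to the start, and the TATA box letters at -6. The Ckb window held the TATA box letters at -75 between CCAAT boxes at -93 and -63, and no E-box. Gamt had neither, with 4 GC boxes at -133, -114, -69 and -7. Of all 33469 promoters of the same length, 72.1% held an E-box, 26.2% the TATA box letters, 37.5% a CCAAT box and 33.1% a GC box. Holding such a motif is thus not rare, and how often promoters hold several was not counted. The Ckb window also held 30 CpG dinucleotides, against 7 in Ckm, 12 in Gamt and a median of 7 over all promoters, although their GC contents were alike at 65.3%, 66.7% and 68%. Entries were found for 6 of the 7 genes, and Ak1 was the gene with none. A match is a description of the letters, and binding was not measured.

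Ckm (NCBI gene 24265), the muscle-type subunit that sits at the M-band of the sarcomere, was the highest of the 7 genes in every group and fell in each comparison. Its FPKM were 1464, 1334 and 1303 in siNeg and 731, 655 and 599 in siNeg PE. They were 806, 828 and 787 in siSlc39a2 and 325, 282 and 259 in siSlc39a2 PE. All 4 groups were apart, with siNeg highest, siSlc39a2 next, siNeg PE below it and siSlc39a2 PE lowest. PE changed Ckm by a log2 fold change of -1.13 with the control siRNA (SE 0.10, edgeR adjusted p = 4.47e-06) and by -1.43 after knockdown (SE 0.10, adjusted p = 2.82e-07). Knockdown changed it by -0.91 without PE (SE 0.10, adjusted p = 1.1e-05) and by -1.21 with PE (SE 0.10, adjusted p = 7.87e-07). Mean FPKM in siSlc39a2 PE was 289 ± 33.7 (SD, n = 3), 21.1% of the 1367 ± 85.7 (SD, n = 3) in siNeg, and the rank of Ckm among all genes by mean FPKM went from 61 to 329. The interaction, which is the knockdown effect with PE less that without, was -0.30 (SE 0.14, edgeR adjusted p = 0.32). It did not pass, but its 95% interval of -0.61 to 0.00 holds differences of some size, and it passed in 4 of 19 alternatives (adjusted p from 0.0213 to 0.564). In these bulk samples fewer cardiomyocytes and less RNA per cardiomyocyte cannot be told apart. The 6 cardiomyocyte markers moved in different directions. Myh6 and Tnni3 fell in all 4 comparisons, with log2 fold changes between -1.16 and -0.95 and between -0.52 and -0.34. Actn2 rose with PE, by 0.43 with the control siRNA and 0.56 after knockdown, and fell with knockdown without PE (-0.19). Ryr2 fell with knockdown under PE (-0.43), and Tnnt2 and Myl2 were called in none. The summed FPKM of the 6 of 10023 to 11011 in siSlc39a2 PE and 11234 to 12406 in siNeg did not overlap. The part of cardiomyocyte content in the fall of Ckm was not tested.

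**Figure D1:**
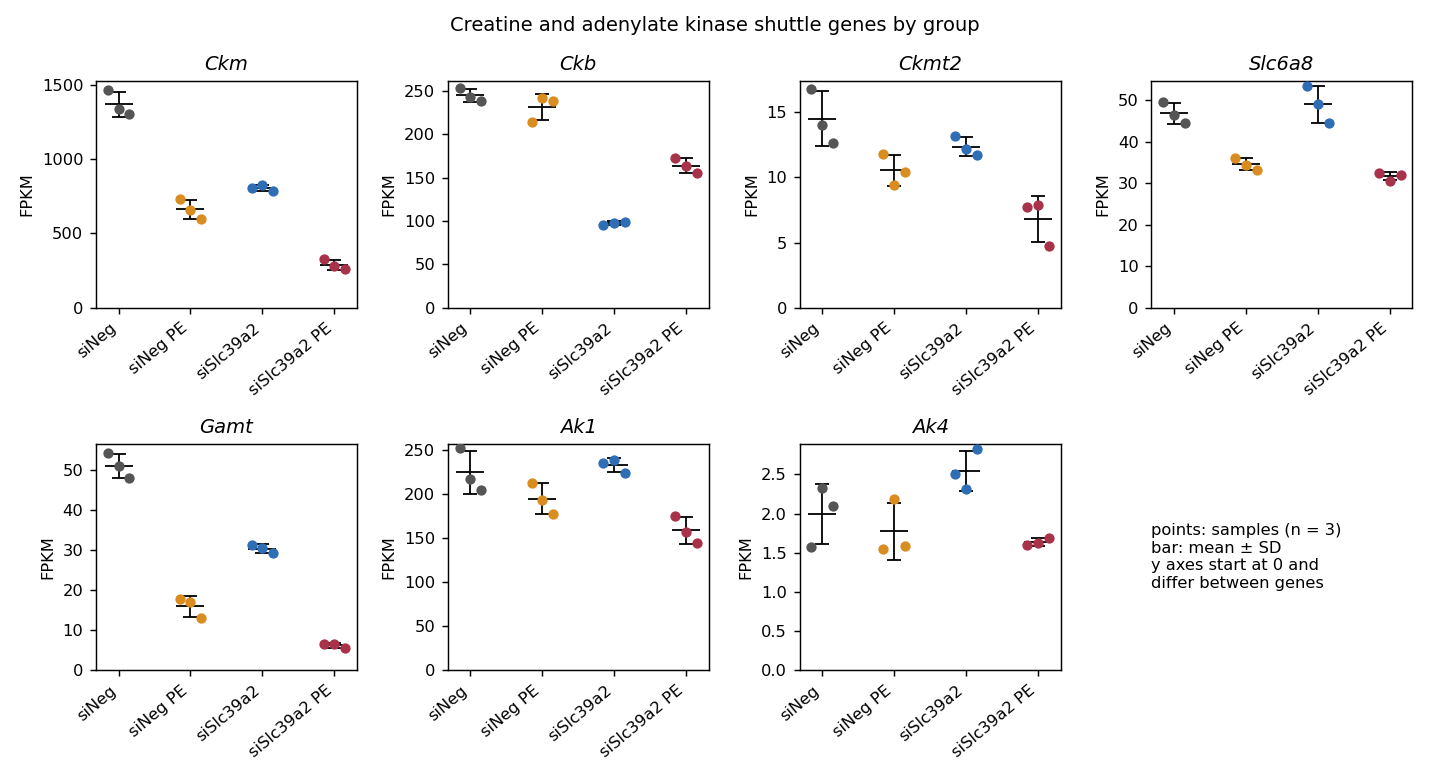
FPKM of the 7 genes in each sample (points) with the group mean and SD (bars, n = 3) by group, on y axes that start at 0 and differ between genes. Ckm and Gamt step down to means of 289 and 6.28 FPKM in siSlc39a2 PE, while Ckb is lowest in siSlc39a2 at 97.2 FPKM and stands at 164 FPKM in siSlc39a2 PE.

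Ckb (NCBI gene 24264), the brain-type subunit, followed another order. Its FPKM were 254, 243 and 239 in siNeg and 214, 242 and 238 in siNeg PE, so these groups overlapped. They were 94.9, 97.5 and 99.3 in siSlc39a2 and 173, 163 and 155 in siSlc39a2 PE. The knockdown samples were thus lowest without PE, and the knockdown samples with PE lay between them and the control siRNA. Knockdown changed Ckb by a log2 fold change of -1.48 without PE (SE 0.07, edgeR adjusted p = 1.2e-09), a fold of 0.359 in scaled counts. In FPKM, scaled otherwise, the mean of siSlc39a2 was 39.6% of that of siNeg. With PE, knockdown changed Ckb by -0.51 (SE 0.06, edgeR adjusted p = 2.82e-05). After knockdown, PE raised Ckb by 0.80 (SE 0.06, edgeR adjusted p = 7.68e-07), which made it the only one of the 7 genes called higher in any comparison. The interaction was 0.97 (95% interval 0.78 to 1.17, edgeR adjusted p = 8.48e-05) and passed in all 19 alternatives, with values between 0.86 and 1.01. Of all genes tested, 3.61% were called for the interaction, and Ckb was the only one of the 7 that was. The PE effect with the control siRNA was -0.17 (SE 0.06, edgeR adjusted p = 0.044), and it passed in 5 of 20 alternatives, with adjusted p from 0.0278 to 0.959 and a value of 0.01 on quantile-normalized FPKM. A decrease of Ckb with PE in control cells was therefore not settled by these data.

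Markers of other cell types moved with Ckb in part. Knockdown without PE lowered 5 of 6 fibroblast markers, whose summed FPKM went from 1961 to 2570 in siNeg to 820 to 890 in siSlc39a2, and 4 of 4 smooth muscle markers, from 1549 to 1630 to 669 to 687. With PE after knockdown the smooth muscle sum was higher at 1015 to 1113, 2 of its 4 markers having risen and 1 having fallen. The fibroblast sum was lower there at 557 to 778, but it is mostly Col1a1, and of the 6 fibroblast markers 3 rose (Dcn by 0.47, Lum by 0.35 and Pdgfra by 0.34) and 2 fell (Col1a1 at -0.49 and Col1a2 at -0.41). Knockdown under PE lowered 5 of 6 fibroblast markers, with sums of 1423 to 1821 in siNeg PE, and raised 1 of the 4 smooth muscle markers and lowered none, with sums of 935 to 1239 in siNeg PE. With PE under the control siRNA both sums were below those of siNeg, while mean Ckb was 94.4% of siNeg in FPKM. Of the 6 fibroblast markers 2 rose and 2 fell there, and of the 4 smooth muscle markers 1 rose and 2 fell. Levels differed widely within each list. On average in siSlc39a2, Col1a1 was at 611 FPKM and Pdgfra at 7.22 FPKM. Of the smooth muscle markers, Acta2 was at 372 and Tagln at 293 FPKM there, but Cnn1 was at 9.22 and Myh11 at 1.19 FPKM. The genes most like Ckb over the 12 samples, by the root mean square (RMS) difference of centred log2 CPM, were Thbs3 (0.14), Col4a1 (0.15) and Gng8 (0.16), and Col4a1 shares reads with other genes. Thbs3 and Col4a1 encode matrix proteins. Ckb is expressed in muscle and non-muscle cells alike, and the part of non-muscle cells in its changes was not tested.

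The muscle to brain ratio was taken as Ckm over Ckb in FPKM within each sample. It was 5.77, 5.48 and 5.45 in siNeg and 3.41, 2.70 and 2.51 in siNeg PE. It was 8.49, 8.49 and 7.93 in siSlc39a2 and 1.88, 1.73 and 1.66 in siSlc39a2 PE. The groups did not overlap, and the ratio was highest in untreated knockdown cells and lowest in knockdown cells with PE, although Ckm was lower than in siNeg in both. On the log2 scale PE changed the ratio by -0.97 (SE 0.14) with the control siRNA and by -2.24 (SE 0.06) after knockdown, a 4.72-fold decrease. Knockdown changed it by 0.58 (SE 0.04) without PE and by -0.70 (SE 0.14) with PE. Each of these compares 3 with 3 samples, where the exact permutation test gave p = 0.1, the smallest it can give. Taken over both siRNAs, PE changed the log2 ratio by -1.60 (SE 0.07, two-sided exact permutation within siRNA, p = 0.005, the smallest possible). Taken over both treatments, knockdown changed it by -0.06 (SE 0.07, exact permutation p = 0.81), an average of opposite changes. The difference between these opposite changes was -1.28 (SE 0.15) and was not tested on its own.

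**Figure D2:**
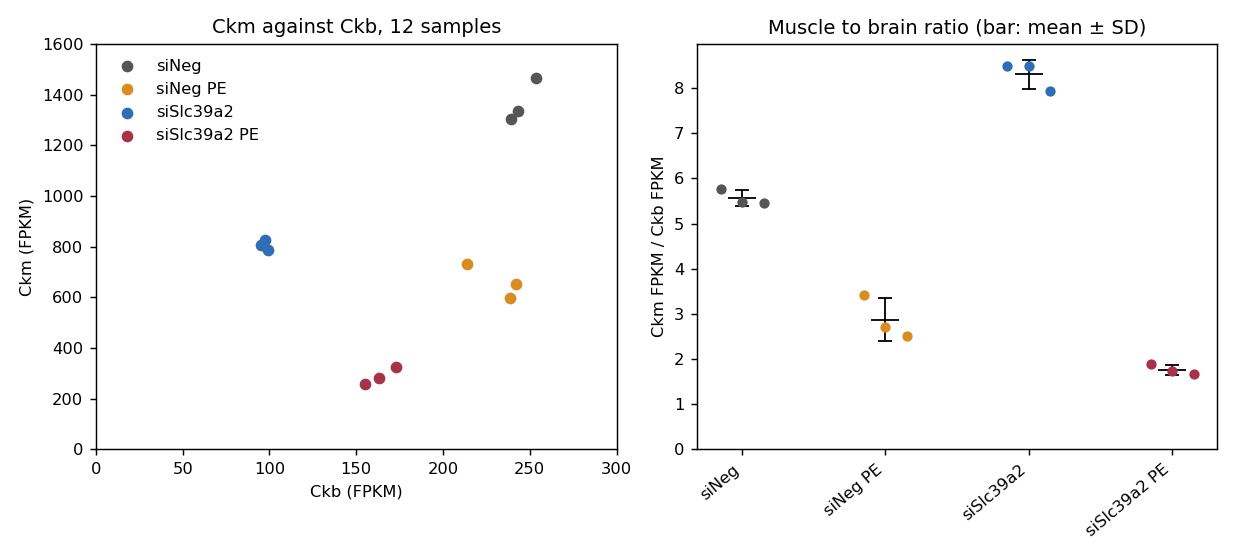
Left, Ckm against Ckb in FPKM for the 12 samples; right, their ratio in each sample (points) with mean and SD (bars, n = 3). Mean ratios are 8.3 in siSlc39a2, 5.57 in siNeg, 2.88 in siNeg PE and 1.76 in siSlc39a2 PE, and no samples of different groups overlap.

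Summed over Ckm, Ckb and Ckmt2, creatine kinase FPKM was 1627 ± 95.2 (SD, n = 3) in siNeg and stood at 903 ± 54.5 with PE alone and at 916 ± 19.6 with knockdown alone. With knockdown and PE together it was 459 ± 43.8 (SD, n = 3). The sums of siNeg PE and siSlc39a2 were thus close, but their make-up was not. Ckm held 73.1% ± 2.96 (SD, n = 3) of the sum in siNeg PE and 88% ± 0.35 in siSlc39a2, against 84% ± 0.344 in siNeg. In siSlc39a2 PE it held 62.8% ± 1.34 (SD, n = 3) and Ckb held 35.8% ± 1.47, the largest share of the brain type among the groups.

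Ckmt2 (NCBI gene 688698), the sarcomeric mitochondrial enzyme that charges creatine beside the inner membrane, was about 1% of that sum, with shares between 0.888% and 1.47% by group. Its FPKM were 16.8, 14.1 and 12.7 in siNeg and 13.2, 12.2 and 11.8 in siSlc39a2. With PE they were 11.8, 9.40 and 10.4 in siNeg PE and 7.72, 7.91 and 4.75 in siSlc39a2 PE. The siSlc39a2 PE samples were below all others, while siNeg and siSlc39a2 overlapped in FPKM. Both decreases that involve siSlc39a2 PE passed in all 20 alternatives, at -0.79 against siNeg PE (SE 0.17, edgeR adjusted p = 0.00189) and -0.78 against siSlc39a2 (SE 0.17, edgeR adjusted p = 0.00202). The decreases with PE alone (-0.53, adjusted p = 0.0192) and with knockdown alone (-0.54, adjusted p = 0.0168, both edgeR) were less firm, passing in 16 and 14 of 20 alternatives. Without siNeg replicate 1, the highest sample, they were -0.42 and -0.43 and did not pass. Counts of this gene were between 113 and 422 per sample.

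Creatine enters the cell through Slc6a8 (NCBI gene 50690), its plasma membrane transporter. FPKM were 49.7, 46.4 and 44.5 in siNeg and 53.4, 49.2 and 44.5 in siSlc39a2. With PE they were 36.2, 34.4 and 33.3 in siNeg PE and 32.6, 30.6 and 32.1 in siSlc39a2 PE. Every PE sample was below every untreated sample, whichever the siRNA. The log2 fold change with PE was -0.52 with the control siRNA (SE 0.08, edgeR adjusted p = 0.000327) and -0.57 after knockdown (SE 0.08, edgeR adjusted p = 9.62e-05). The knockdown effect was -0.08 without PE (95% interval -0.25 to 0.10) and -0.13 with PE (-0.31 to 0.05), neither of which passed. These intervals leave room for small knockdown effects in either direction.

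Gamt (NCBI gene 25257), guanidinoacetate N-methyltransferase, carries out the last step of creatine synthesis, and its RNA fell most with PE. FPKM were 54.1, 51.0 and 48.1 in siNeg and 31.4, 30.4 and 29.2 in siSlc39a2. They were 17.7, 17.1 and 13 in siNeg PE and 6.65, 6.62 and 5.56 in siSlc39a2 PE. No groups overlapped, and the order was that of Ckm. PE changed Gamt by a log2 fold change of -1.78 with the control siRNA (SE 0.11, edgeR adjusted p = 2.47e-07) and by -2.21 after knockdown (SE 0.12, edgeR adjusted p = 3.85e-08), a 4.64-fold decrease. Knockdown changed it by -0.88 without PE (SE 0.11, edgeR adjusted p = 3.01e-05) and by -1.32 with PE (SE 0.12, edgeR adjusted p = 1.86e-06). The interaction was -0.44 (95% interval -0.79 to -0.08, edgeR adjusted p = 0.2) and passed in 2 of 19 alternatives. The counts of Gamt are not whole numbers, so some of its reads are shared with other genes and its changes are uncertain to that extent.

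Gatm, which makes the guanidinoacetate that Gamt methylates, moved the other way with PE. It rose from 5.01 ± 0.767 (SD, n = 3) to 14.6 ± 2.39 FPKM with the control siRNA, a log2 fold change of 1.46 (edgeR adjusted p = 4.32e-06). After knockdown it rose from 3.81 ± 0.555 to 15.5 ± 0.744 FPKM, by 2.08 (edgeR adjusted p = 1.36e-07). In siNeg the mean FPKM of Gamt was far above that of Gatm, and in siSlc39a2 PE it was below it. Slc16a12, a monocarboxylate transporter family member that carries creatine out of cells, also rose with PE, by 1.71 with the control siRNA (edgeR adjusted p = 3.76e-05) and by 2.10 after knockdown (edgeR adjusted p = 2.21e-06), from 0.48 to 3.38 FPKM between siNeg and siSlc39a2 PE on average. Knockdown raised it by 1.14 with PE (edgeR adjusted p = 0.000167). Ckmt1, the ubiquitous mitochondrial creatine kinase, was at most 0.743 FPKM on average in any group, and it rose by 1.35 with knockdown without PE (edgeR adjusted p = 0.0185).

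Ak1 (NCBI gene 24183), the cytosolic adenylate kinase of muscle, stood near the level of Ckb in siNeg. The samples of both overlapped there, with Ckb the higher within each sample. Its FPKM were 252, 217 and 205 in siNeg and 235, 239 and 224 in siSlc39a2. With PE they were 213, 194 and 178 in siNeg PE and 175, 157 and 145 in siSlc39a2 PE. Only siSlc39a2 PE lay below all samples of the other groups. After knockdown PE changed Ak1 by a log2 fold change of -0.50 (SE 0.10, edgeR adjusted p = 0.00131), which passed in all 20 alternatives. Its change with knockdown under PE was -0.30 (SE 0.10, edgeR adjusted p = 0.0233; 17 of 20 alternatives). That with PE and the control siRNA was -0.29 (SE 0.10, edgeR adjusted p = 0.0355), but it passed in 11 of 20 alternatives, and it was -0.17 without siNeg replicate 1, the highest sample. The knockdown effect without PE was -0.09 (95% interval -0.32 to 0.13). Its counts are not whole, so its reads too are shared with other genes.

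Ak4 (NCBI gene 29223), a mitochondrial matrix member of the family with little enzyme activity of its own, was lowest of the 7 at 1.99 ± 0.384 FPKM (SD, n = 3) in siNeg. Its FPKM were 1.57, 2.32 and 2.09 in siNeg and 2.51, 2.31 and 2.82 in siSlc39a2. With PE they were 1.55, 2.19 and 1.58 in siNeg PE and 1.60, 1.62 and 1.69 in siSlc39a2 PE. The siSlc39a2 samples were high, although siNeg replicate 2 was level with the lowest of them, and the other groups overlapped each other. After knockdown PE changed it by a log2 fold change of -0.72 (SE 0.14, edgeR adjusted p = 0.000671; 20 of 20 alternatives). No other comparison of Ak4 passed, and the knockdown effect without PE was 0.30 (95% interval 0.01 to 0.59, edgeR adjusted p = 0.0759). Its counts were between 127 and 275 per sample.

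Of the further adenylate kinases, Ak6 rose in all 4 comparisons, by log2 fold changes of 0.34 to 0.57, and the mitochondrial matrix enzyme Ak3 rose with PE (0.28 and 0.36) and fell with knockdown (-0.51 and -0.44). Both share reads with other genes.

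Counted over the shuttle, 6 of the 7 genes fell with PE under the control siRNA, where 49.7% of all genes tested were called and 25.7% were called lower. The calls of Ckb, Ckmt2 and Ak1 are the less firm ones among them, and without siNeg replicate 1 or without siNeg PE replicate 3 the count was 3. After knockdown all 7 were called with PE, 6 lower and Ckb higher, against 60% of all genes called and 29.3% called lower. Knockdown lowered 4 of 7 without PE (49.2% of all genes called, 26.4% lower) and 5 of 7 with PE (57.3% called, 28.1% lower). At the study's threshold 2, 2, 1 and 2 genes were called in these 4 comparisons in the same order, against 6.6%, 10.5%, 9.78% and 11.6% of all genes. Medians of the 7 log2 fold changes were -0.52, -0.72, -0.54 and -0.51, against medians between -0.02 and 0.01 over all genes tested. The comparisons share samples with each other, so their counts are not separate pieces of evidence.

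**Figure D3:**
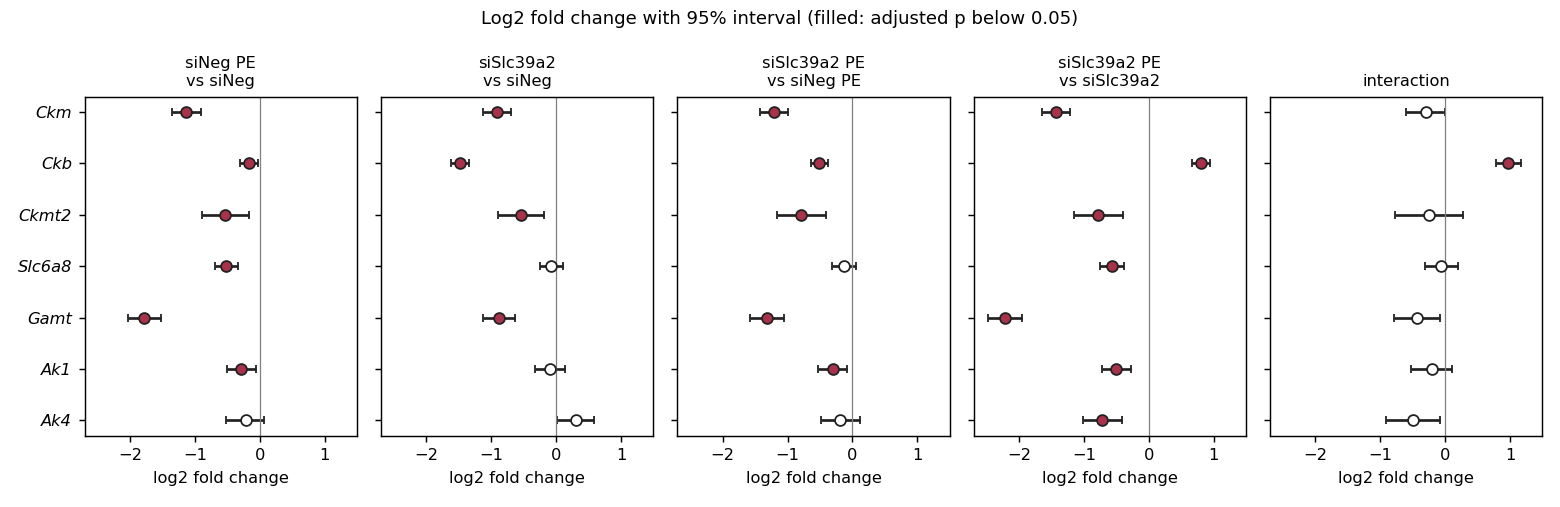
Log2 fold changes of the 7 genes (points) with 95% intervals (bars) in the 4 comparisons and the interaction, filled where the edgeR adjusted p is below 0.05. Ckb is the only gene right of 0 among the filled points, at 0.80 for siSlc39a2 PE against siSlc39a2 and 0.97 for the interaction.

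Ranked by mean FPKM, the order of the genes in siNeg was Ckm, Ckb, Ak1, Gamt, Slc6a8, Ckmt2 and Ak4. Samples of Ckb and Ak1 overlapped, as did those of Gamt and Slc6a8. Within each siNeg sample, however, Ckb was above Ak1 and Gamt above Slc6a8, and these differences between genes were not tested. In siSlc39a2 PE samples of Ckb and Ak1 again overlapped, at 164 ± 8.77 and 159 ± 15.1 FPKM (SD, n = 3). Gamt had dropped to near the level of Ckmt2 there, at 6.28 ± 0.621 against 6.79 ± 1.77 FPKM (SD, n = 3). FPKM and scaled counts do not give quite the same changes. Mean Ak1 in siSlc39a2 was 104% of siNeg in FPKM while its fitted change was -0.09, and mean Ckmt2 was 85.3% of siNeg in FPKM and fell from 14.5 to 9.93 in CPM.

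Other enzymes of muscle energy supply also have a muscle form and a more general form, and 4 such pairs were measured to set the creatine kinase ratio beside them. Phosphoglycerate mutase was most like it under PE, with Pgam2 over Pgam1 changing by -1.14 (SE 0.17) on the log2 scale with the control siRNA and by -1.94 (SE 0.06) after knockdown. Phosphofructokinase, as Pfkm over Pfkp, changed by -1.28 (SE 0.15) and -1.80 (SE 0.01). Without PE, knockdown changed these pairs by -1.04 (SE 0.06) and -0.70 (SE 0.07), whereas it changed the creatine kinase pair by 0.58 (SE 0.04). The phosphorylase pair Pygm over Pygb changed by 0.10 (SE 0.03) and 0.30 (SE 0.02) with PE, and the enolase pair Eno3 over Eno1 by 0.41 (SE 0.06) and 0.45 (SE 0.05), with reads of Eno1 shared. A lower muscle to general ratio with PE was thus seen in 3 of 5 pairs and a higher ratio in 2 of 5. Each value of 3 against 3 samples had an exact permutation p = 0.1, the smallest possible, and over both siRNAs PE gave p = 0.005 for each of the 5 pairs, again the smallest possible.

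**Figure D4:**
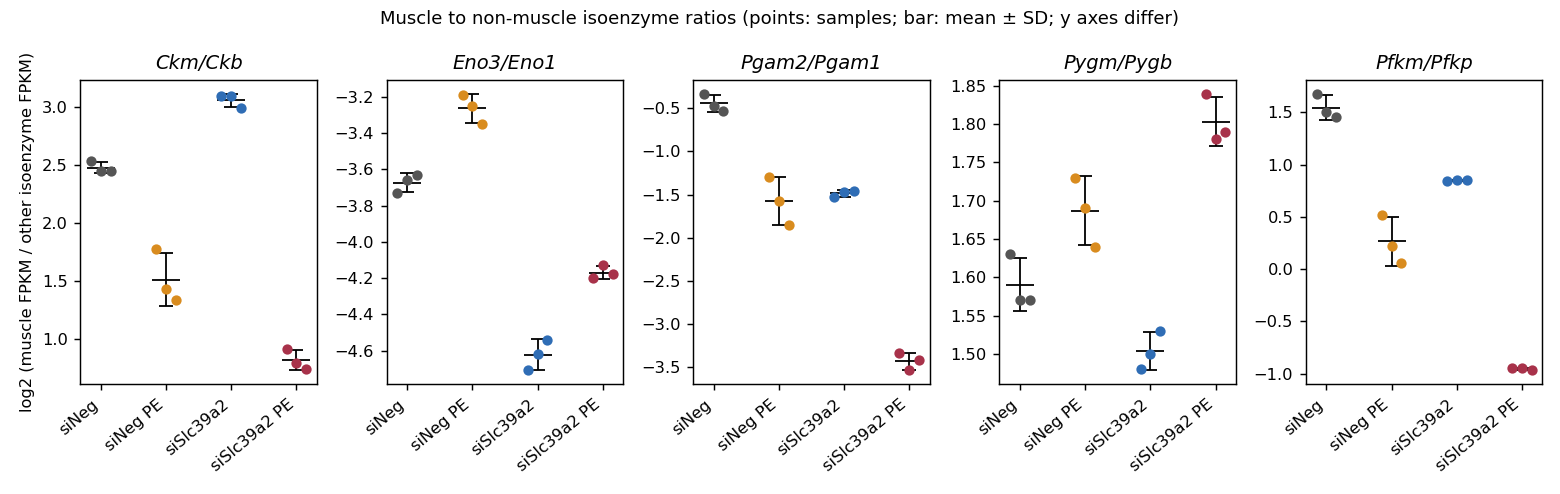
Log2 ratio of muscle to general isoenzyme FPKM in each sample (points) with mean and SD (bars, n = 3) for 5 pairs, on y axes that differ. Ckm/Ckb is the only pair that is higher in siSlc39a2 than in siNeg, at 3.05 against 2.48 on average.

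Genes around the shuttle were read from 9 lists of 74 symbols in all, of which 71 are in the matrices and 66 were tested. With PE under the control siRNA 13 rose and 28 fell, with knockdown 17 rose and 25 fell, with knockdown under PE 21 rose and 23 fell, and with PE after knockdown 20 rose and 26 fell. That is 62.1%, 63.6%, 66.7% and 69.7% of the 66, against 49.7%, 49.2%, 57.3% and 60% of all genes.

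The largest shifts among genes that handle AMP were in the purine nucleotide cycle. Adssl1, the muscle adenylosuccinate synthetase, was at 186 ± 16.7 FPKM (SD, n = 3) in siNeg and 38.2 ± 2.27 in siSlc39a2 PE. It fell, with log2 fold changes of -1.13 with PE (edgeR adjusted p = 1.98e-05), of -1.71 with PE after knockdown (edgeR adjusted p = 3.85e-07) and of -1.24 with knockdown under PE (edgeR adjusted p = 4.04e-06). Its general counterpart Adss rose by 1.04 with PE after knockdown (edgeR adjusted p = 0.000194), reaching 17.1 ± 3.79 FPKM (SD, n = 3). Ampd1, the AMP deaminase of skeletal muscle, had few counts, with 11, 15 and 18 in siNeg, 3, 3 and 4 in siNeg PE, none in any siSlc39a2 sample and 1 in each siSlc39a2 PE sample. It was at least 14.5-fold lower in siSlc39a2 than in siNeg, taking 3 counts over the group as the floor, and its log2 fold change with PE was -2.20 (edgeR adjusted p = 0.00102). Ampd3, whose reads are partly shared, was much higher at 27 ± 1.56 FPKM in siNeg and fell to 13.9 ± 1.15 in siSlc39a2 PE (SD, n = 3), a log2 fold change of -0.91 against siSlc39a2 (edgeR adjusted p = 4.06e-07). Over this list of 11 tested genes, 4 rose and 6 fell with PE, 1 rose and 6 fell with knockdown, 3 rose and 4 fell with knockdown under PE, and 4 rose and 4 fell with PE after knockdown. That is 90.9%, 63.6%, 63.6% and 72.7% of the list, against 49.7%, 49.2%, 57.3% and 60% of all genes tested.

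Transporters and channels that exchange ATP, ADP and phosphate across the mitochondrial membranes were given by 8 tested genes. Of these none rose and 5 fell with PE, 2 rose and 5 fell with knockdown with or without PE, and 1 rose and 5 fell with PE after knockdown. Of all genes tested, 25.7%, 26.4%, 28.1% and 29.3% fell with PE, with knockdown, with knockdown under PE and with PE after knockdown. Vdac3, an outer membrane channel, rose with knockdown (0.33 without PE and 0.27 with it), and Slc25a24, a carrier of ATP and phosphate, rose in all comparisons but PE with the control siRNA (0.54 to 0.82). Slc25a4, the heart form of the ADP/ATP carrier, was at 2550 ± 147 FPKM (SD, n = 3) in siNeg and 1365 ± 38.8 in siSlc39a2 PE, and fell in all 4 comparisons, with log2 fold changes of -0.72 to -0.27. Slc25a42, a mitochondrial carrier of coenzyme A and adenine nucleotides, fell most, with log2 fold changes of -1.08 with PE (edgeR adjusted p = 0.000103) and -1.19 with PE after knockdown (edgeR adjusted p = 3.21e-05). At the M-band, where Ckm is anchored, Myom2 fell, with log2 fold changes of -1.09 with PE (edgeR adjusted p = 0.000183) and -1.52 with it after knockdown (edgeR adjusted p = 8.39e-06). Myom3, whose reads are partly shared, changed by -1.45 with PE and by -2.93 with PE after knockdown, and its interaction of -1.48 passed (edgeR adjusted p = 0.000282). Myom1 did not pass with PE under the control siRNA (0.18) and rose with it after knockdown (0.48, edgeR adjusted p = 0.000334).

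**Figure D5:**
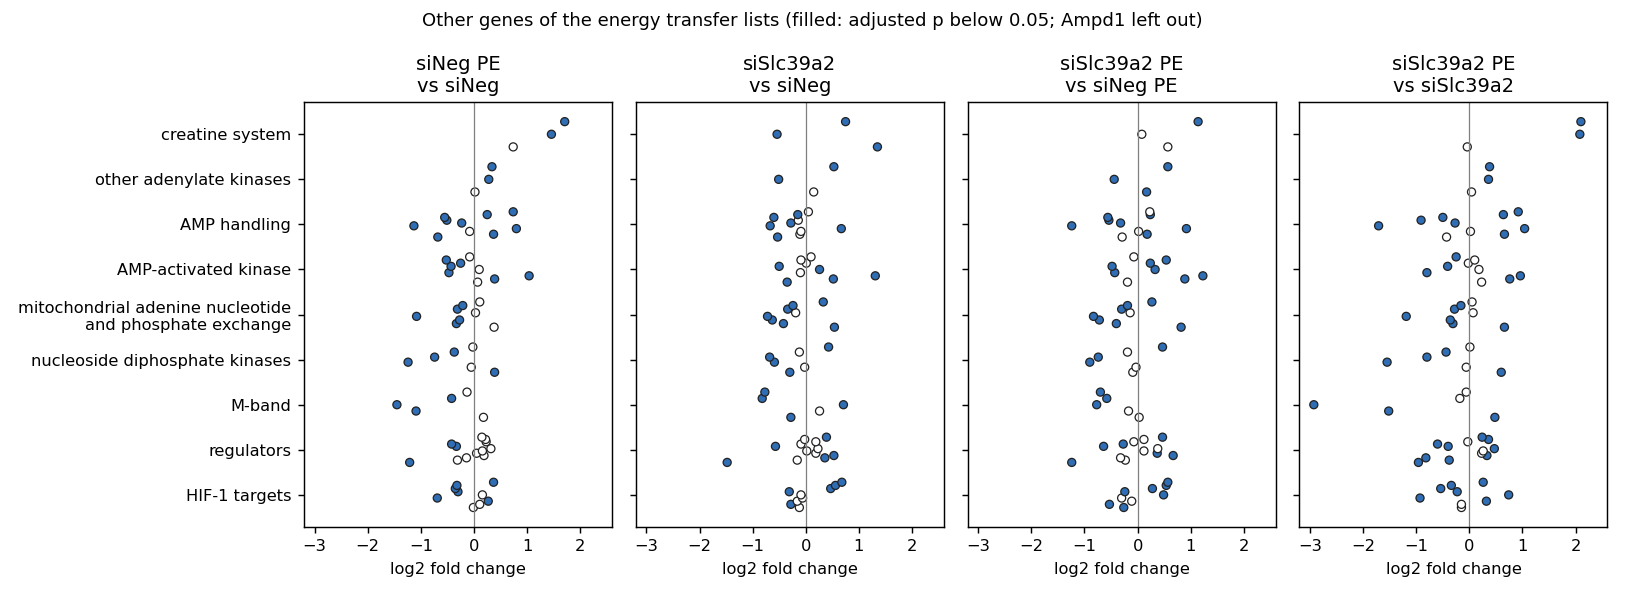
Log2 fold change of each tested gene of the 9 lists (points, filled where the edgeR adjusted p is below 0.05) in the 4 comparisons, with Ampd1 left out because its counts were 0 in siSlc39a2. Gatm and Slc16a12 are the points near 2 in the creatine system list for siSlc39a2 PE against siSlc39a2, and Myom3 is the lowest M-band point at -2.93.

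By the same measure of likeness over the 12 samples, the genes nearest to Ckm were Sema7a (RMS difference 0.09 log2 CPM), LOC103694863 (0.09, shared reads) and Tmem44 (0.11), where the SD of Ckm within groups was between 0.06 and 0.18. Sema7a changed by -1.22 and -1.49 with PE and by -0.80 and -1.06 with knockdown. Nearest to Gamt were Rxrg (0.15, shared reads), Ddit4l (0.18) and Acss1 (0.21). Rxrg, a retinoid X receptor, changed by -1.62 and -2.06 with PE and by -0.69 and -1.14 with knockdown. Ckmt2 was nearest to Prxl2b, Fmc1 and Svbp (0.11 to 0.12), Slc6a8 to Washc1, Rapgef1 and Ap5z1 (0.05 to 0.06), Ak1 to Atg4d, Mon1a and Ndufa8 (0.04 to 0.05) and Ak4 to Fyn, Cog5 and Vgll4 (0.15). These are descriptions of like profiles over the same samples, and no test was made of them.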

How the data were processed

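RNA-seq of 12 NRVM samples in 4 groups was analysed from processed values. For 18483 genes the authors deposited expected counts, not normalized and 78.7% of them whole numbers, and FPKM values. The submitters' notes name HISAT, Bowtie2 and Rnor_6.0, and the counting program is not given in the sources used here. Expected counts were rounded, filtered by filterByExpr (4516 genes left out), TMM-normalized and fitted with the quasi-likelihood test of edgeR 4.0.16 (R 4.3.3) in 1 model of the 4 groups (residual degrees of freedom 8), with Benjamini-Hochberg adjustment over 13967 genes. The methods of the study name limma without saying on which values, so limma 3.58.1 on quantile-normalized log2(FPKM + 1) and log2(FPKM + 0.1), kept at 0.5 FPKM in 3 samples or unfiltered, was an alternative. Others were RLE factors, DESeq2 1.42.0, no count filter, the groups of a comparison alone, a replicate block, and leaving out each sample. The fits were tested on simulated data. Ratios were log2 FPKM differences within a sample, with exact permutation tests over all regroupings (numpy 2.4.6). Genes named are the 7 chosen by symbol, Slc39a2, up to 5 genes per list past both thresholds, 4 isoenzyme pairs and the 3 genes most like each of the 7 with a mean log2 CPM above 1. Marker genes and further genes of the lists were named after their values were seen. The genes and lists were chosen with earlier results of these data known. Promoters are from RefSeq (GRCr8).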

Additional observations from a re-analysis of the deposited data

Results flagged for a closer look

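Knockdown lowered Ckb with and without PE, and the effect without PE was the larger, a difference of 0.97 on the log2 scale (edgeR interaction adjusted p = 8.48e-05). Smooth muscle markers summed to 669 to 687 FPKM in siSlc39a2 and 1015 to 1113 FPKM in siSlc39a2 PE. With the control siRNA they summed to 1549 to 1630 FPKM in siNeg and 935 to 1239 FPKM in siNeg PE. Fibroblast markers summed to 1961 to 2570 FPKM in siNeg and 820 to 890 FPKM in siSlc39a2, and with PE to 1423 to 1821 FPKM in siNeg PE and 557 to 778 FPKM in siSlc39a2 PE, with 5 of 6 called lower in each case. The part of these markers in the difference was not tested.

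The muscle to brain creatine kinase ratio rose with knockdown in untreated cells and was lower with knockdown under PE in every sample, and these effects differed by -1.28 on the log2 scale. This difference was not tested.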

How the results depend on the processing

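Of 693 alternative values of single-gene fold changes, 638 kept their direction and their side of the threshold, 34 no longer passed, 12 newly passed and 9 changed sign. The sign changes were those of small effects. Ckb with PE was 0.01 in all 3 limma settings on FPKM, Ak1 with knockdown was 0.00 in them and, with each sample left out, -0.17 to 0.02 (siNeg replicate 1 out), Slc6a8 with knockdown was -0.15 to 0.05 (siSlc39a2 replicate 3 out), and the Slc6a8 interaction was -0.18 to 0.01 (siSlc39a2 replicate 1 out). With each sample left out, calls among the 7 genes were 3 to 6 with PE and 1 to 2 for the interaction, which was also 2 with each limma setting. List genes called for the interaction were 4, against 7 with DESeq2, 7 with limma on log2(FPKM + 1), 8 with it unfiltered and 1 to 5 with each sample left out. Of all genes tested 3.61% were called for the interaction in the main fit and 5.77% with DESeq2. With limma on log2(FPKM + 1) that share was 6.17%, and unfiltered it was 5.92%. The ratio change was -1.09 to -0.87 with PE, -0.79 to -0.57 with knockdown under PE, -1.37 to -1.15 for the interaction and -0.11 to 0.00 for knockdown over both treatments, each extreme of -1.09, -0.57, -1.15 and 0.00 without siNeg PE replicate 1. The cause was not tested. The median over all genes stayed within 0.05 of 0 in the settings compared.

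With the replicate numbers as a block, 33 of 35 fold changes of the 7 genes kept their call, and the interactions of Ckm (-0.31, adjusted p = 0.0456, edgeR) and Gamt (-0.43, adjusted p = 0.0237, edgeR) newly passed, so that 3 of the 7 genes and 11 list genes were called for the interaction. In that fit 7.54% of all genes tested were called for the interaction, against 3.61% in the main fit. Whether the numbers pair the samples was not settled by the check made. Deviations of same-numbered samples correlated over genes between -0.0904 and 0.32, over 0.1 in 8 of 18 pairs. Those of differently numbered samples correlated between -0.249 and 0.236. A sample correlated best with its own number, among the 3 of another group, in 19 of 36 cases. Replicate 1 correlated at 0.315, 0.228 and 0.32 among siNeg, siNeg PE and siSlc39a2 PE. Among the same groups replicate 2 correlated at 0.0535, 0.00722 and 0.00387, and replicate 3 at 0.206, 0.13 and 0.122. With siSlc39a2, replicate 1 of siNeg, siNeg PE and siSlc39a2 PE correlated at -0.0107, -0.00252 and 0.0229. In the same order replicate 2 correlated with it at 0.00409, -0.0346 and -0.0904, and replicate 3 at 0.025, 0.111 and 0.221.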

Other observations

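The genes that read or recycle AMP did not all move with the shuttle. Prkaa2, the catalytic α2 subunit of the AMP-activated kinase, was at 4.93 ± 1.16 FPKM (SD, n = 3) in siNeg, 12.3 ± 1.52 with knockdown alone, 10.8 ± 2.24 with PE alone and 23.2 ± 4.9 with both. It rose by 1.04 with PE (edgeR adjusted p = 0.000335), by 1.31 with knockdown (edgeR adjusted p = 3.25e-05) and by 1.23 with knockdown under PE (edgeR adjusted p = 4.1e-05). Prkaa1, the other catalytic subunit, rose as well, by 0.39 to 0.89 in the 4 comparisons. The β1 subunit gene Prkab1 fell with PE, at -0.47 with the control siRNA and -0.80 after knockdown, and Prkag1 fell in all 4 comparisons, at -0.50 to -0.41, with partly shared reads. Of 9 tested genes of the kinase, 2 rose and 4 fell with PE, 3 rose and 2 fell with knockdown, 5 rose and 2 fell with knockdown under PE, and 2 rose and 3 fell with PE after knockdown. That is 66.7%, 55.6%, 77.8% and 55.6% of these genes, against 49.7%, 49.2%, 57.3% and 60% of all genes tested.

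Nucleoside diphosphate kinases, which pass phosphate from ATP to other nucleotides, went down in part. Nme4, the mitochondrial member, fell in all 4 comparisons, at -0.80 to -0.68, from 38.5 ± 4.8 FPKM (SD, n = 3) in siNeg to 14.7 ± 1.76 in siSlc39a2 PE. Nme3 fell, at -1.24 with PE (edgeR adjusted p = 0.000453) and -1.55 with PE after knockdown (edgeR adjusted p = 8.26e-05), with partly shared reads, and Nme1 rose with PE, by 0.39 and 0.60.

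Among 12 regulators of muscle energy genes, Epas1, which encodes HIF-2α, fell most. It was at 66 ± 4.55 FPKM (SD, n = 3) in siNeg, 25.3 ± 1.1 with knockdown alone, 30.5 ± 0.561 with PE alone and 12.6 ± 0.15 with both. Its log2 fold changes were -1.21 with PE (edgeR adjusted p = 1.6e-08), -1.48 with knockdown (edgeR adjusted p = 2.25e-10) and -1.24 with knockdown under PE (edgeR adjusted p = 1.82e-09). Hif1a was called in knockdown under PE alone, at 0.37, and Ppargc1a in none of the 4 comparisons. Mef2d fell in all 4, at -0.64 to -0.33. Esrrg (0.33 to 0.67) and Tfam (0.24 to 0.47) rose in all comparisons but PE with the control siRNA. Of the 12 regulators, none rose and 3 fell with PE, and 3 rose and 2 fell with knockdown. With knockdown under PE 3 rose and 3 fell, and with PE after knockdown 4 rose and 5 fell. Of 9 tested HIF-1 target genes, 2 rose and 4 fell with PE, 3 rose and 2 fell with knockdown, 4 rose and 3 fell with knockdown under PE, and 3 rose and 4 fell with PE after knockdown. In the same order 66.7%, 55.6%, 77.8% and 77.8% of these targets were called, and 25%, 41.7%, 50% and 75% of the regulators. The shares over all genes tested were 49.7%, 49.2%, 57.3% and 60%.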
